A study of Mus musculus with 6 samples.

Results

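The DNAJ family, also called HSP40, is the set of J-domain co-chaperones that work with the HSP70 chaperones. It was examined here in whole mouse testis. Members were the protein-coding genes of the deposited expression table whose symbol is Dnaja, Dnajb or Dnajc followed by a number and, in some, a letter. The rule found 45 members among 44065 genes, of which 4 were in subfamily A, 13 in subfamily B and 28 in subfamily C. Of these, 6 are known for expression in the testis (Dnajb3, Dnajb7, Dnajb8, Dnajb13, Dnajc5b and Dnajc5g), and the other 39 are called general members here.

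A J protein carries a J domain, which binds HSP70 and speeds up its ATP hydrolysis, so that HSP70 closes on an unfolded client protein. The rest of the J protein sets where in the cell this happens and on which client. Some members are induced by heat or other protein-folding stress, and germ cells in the testis use dedicated members while the sperm head and flagellum are built.

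Control mice (CT) were compared with sedentary mice (ST) after an exposure of 10 weeks, with 3 testis libraries in each group. All animals were C57BL/6 males that were 6 weeks old when the exposure began, and the 3 samples in each group are described in the labels as biological replicates. The labels give no housing, activity or testis temperature for either group, and no genetic change; another group, with compensating physical activity, was not analysed here. Total RNA was depleted of ribosomal RNA and sequenced from both ends, and the libraries held 28495596 to 38148228 reads over genes.

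Expression was given as FPKM, which scales fragments to the length of the gene and the total of the library and therefore allows levels to be compared between genes. A gene was tested if it reached 0.5 FPKM in at least 3 of the 6 libraries, and 44 of the 45 members did. The member just below this limit was Dnajc6 (auxilin, which helps HSP70 strip clathrin from vesicles), at 0.376, 0.296 and 0.397 FPKM in the control libraries and 0.511, 0.274 and 0.394 FPKM in the sedentary libraries. The member just above it was Dnajc22, at 0.721 to 1.40 FPKM in control libraries and 0.786 to 1.16 FPKM in sedentary testis.

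The tissue label was checked against cell markers. Summed FPKM of 10 elongating spermatid markers was 24485 to 29070 in control and 31507 to 33974 in sedentary libraries, and that of 13 Sertoli cell markers was 567 to 629 and 713 to 829. Neither pair of ranges overlapped, nor did those of 7 spermatogonia markers (41.5 to 46.9 and 47.4 to 54.9). The spermatogonia markers were divided, however. Of the 7, 4 were above 0 and 3 below in log2 difference (sedentary minus control), with a median of 0.01. Peritubular and fibroblast markers ran the other way, at 44.5 to 62.3 against 29.5 to 41.7 and at 39.3 to 60.4 against 29.0 to 36.3, with all 5 and all 6 below 0. Of 8 Leydig cell markers 7 were below 0, with overlapping ranges of 1082 to 1532 and 959.9 to 1386. For the 8 round spermatid markers the ranges were 1105 to 1299 and 1195 to 1391, and for the 8 spermatocyte markers 362 to 402 and 351 to 394. For the 6 macrophage markers they were 14.7 to 40.1 and 25.6 to 39.4, with 4 above 0 and 2 below. Of 6 epididymis markers 1 passed the expression filter, and Lcn8 was listed at 0 in every library.

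Shown are the upstream windows of Dnajb3, the most abundant member, and of Dnajb1, the member with the lowest limma p-value on FPKM. The windows of Dnaja1 and Dnajb6 are added because they hold heat shock elements. They were chosen after the values were seen. Each is the 250 bases before the RefSeq transcription start in build GRCm38.p6, 5′ to 3′ on the gene's own strand. Capitals mark CCAAT boxes (CCAAT, or ATTGG on the other strand) and cAMP response half-sites (TGACG, or CGTCA on the other strand) in Dnajb3 and Dnajb1, the head-to-head heat shock element GAANNTTC in Dnaja1, and the 3-unit element (GAA, TTC and GAA, each 2 bases apart) in Dnajb6.
Dnajb3 (chr1:88205749-88205998, minus strand): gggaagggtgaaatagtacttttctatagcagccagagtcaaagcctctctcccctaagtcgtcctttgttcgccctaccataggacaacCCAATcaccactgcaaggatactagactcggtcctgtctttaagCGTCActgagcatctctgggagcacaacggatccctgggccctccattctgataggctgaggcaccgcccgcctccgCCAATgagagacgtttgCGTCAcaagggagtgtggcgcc
Dnajb1 (chr8:83607925-83608174, plus strand): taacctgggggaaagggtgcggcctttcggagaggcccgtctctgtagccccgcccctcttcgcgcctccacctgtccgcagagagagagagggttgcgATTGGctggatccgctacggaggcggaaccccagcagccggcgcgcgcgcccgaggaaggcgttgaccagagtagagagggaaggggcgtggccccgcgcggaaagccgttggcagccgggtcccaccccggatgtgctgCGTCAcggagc
Dnaja1 (chr4:40722218-40722467, plus strand): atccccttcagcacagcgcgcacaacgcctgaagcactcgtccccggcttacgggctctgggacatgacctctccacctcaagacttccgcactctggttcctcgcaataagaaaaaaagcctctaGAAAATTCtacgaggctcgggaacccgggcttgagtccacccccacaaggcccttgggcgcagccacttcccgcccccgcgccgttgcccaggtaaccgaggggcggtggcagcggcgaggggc
Dnajb6 (chr5:29735648-29735897, plus strand): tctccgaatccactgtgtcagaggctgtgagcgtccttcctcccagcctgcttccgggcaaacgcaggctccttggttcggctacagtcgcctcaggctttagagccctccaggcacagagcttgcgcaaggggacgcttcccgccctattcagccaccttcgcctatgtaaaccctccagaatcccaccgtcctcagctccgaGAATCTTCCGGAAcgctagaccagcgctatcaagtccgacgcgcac

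The Dnajb3 window held half-sites at -116 to -112 and -22 to -18 and CCAAT boxes at -160 to -156 and -39 to -35, counted from the transcription start. In Dnajb1 the CCAAT box lay at -151 to -147 and the half-site at -11 to -7. RefSeq windows were found for 37 of the 45 members, 50 windows in all, since several members have more than 1 start. The half-site was in 22 of these 50 windows (44%), belonging to 18 members, against 17.8% of all 32851 mouse windows of the same length. The mouse windows were not matched to the GC content of the member windows, and its part in the shares was not tested. Windows of 1 gene overlap, and every full cAMP response element (TGACGTCA, 1.55% of all windows, in Dnajc27 among members) also holds the half-site. The CCAAT box was in 36% of member windows and 33.8% of all windows, a near-equal share.

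The heat shock element GAANNTTC was found for Dnaja1, Dnaja4, Dnajb6 and Dnajc27, in 10% of member windows and 6.69% of all windows. Its tail-to-tail form TTCNNGAA was found for Dnajb4, Dnajb6 and Dnajc10, in 8% of member windows and 7.17% of all windows. The 3-unit element, which overlaps both, was in 2 of 50 member windows (4%, against 0.466% of all windows), each of them a window of Dnajb6. It lay at -46 to -34 in the window shown and at -127 to -115 in the other. These may be the same element counted from 2 starts, in 1 of 37 members. None of these 3 patterns was present in the windows of the 5 testis-enriched members that have one, too few to set apart from the shares above. The ER stress element (CCAAT and CCACG, 9 bases apart), present in 0.113% of all windows, was found for Dnajc3, in 2% of member windows. TATAAA, in 12.4% of all windows, was found for Dnajc19 and Dnajc24, in 4% of member windows. The windows of Dnajc3 and Dnajc19 did not match a transcript of the gene at their ends, so their placement is unchecked. Every motif was searched on both strands. A match describes letters in the window and is not evidence of a bound factor.

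No DNAJ member passed the test between sedentary and control testis. limma on log2(FPKM + 0.5), two-sided and with Benjamini-Hochberg adjustment over 19201 genes, called 0 of 44 members at an adjusted threshold of 0.05, where it called 0.026% of all genes. limma's voom on the reads recovered from the FPKM values also called 0 of 44, where it called 1.44% of all genes. The lowest adjusted p was 0.207 on FPKM (Dnajb1) and 0.0871 on reads (Dnajb3). Without adjustment, 6 members were under 0.05 on FPKM, 5 of them higher in sedentary testis (Dnajb1, Dnajb3, Dnajb2, Dnajc4 and Dnajc17) and 1 lower (Dnajc3). That is 13.6% of the tested members against 17.4% of all genes, of which 10.1% were higher and 7.26% lower. On reads the unadjusted count was 8 members (18.2%, against 20.2% of all genes), with Dnajc13 and Dnajc1 added on the lower side. The 5 higher and 3 lower members stand beside 10.7% and 9.58% of all genes.

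With the deposited library totals taken as given, the intervals limit how large a difference could have gone unseen. For 43 of the 44 members, the 95% confidence interval of the difference (not adjusted for the number of genes) lay within a 1.5-fold change in either direction. The exception was Dnajc17, whose interval reached 0.77 on the log2 scale. On reads this held for 42 members, the exceptions being Dnajc17 (up to 0.88) and Dnajc22 (down to -0.78). These counts depend on the scaling and were not made for the alternatives. Under TPM scaling the difference on FPKM moved from -0.24 to -0.36 for Dnajc13 and from -0.12 to -0.24 for Dnajc22. All log2 differences are sedentary minus control. Unless given as on reads, they are on the log2(FPKM + 0.5) scale, which understates differences of low genes.

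Groups did not overlap for 10 of 44 members (22.7%), of which 8 were higher in all 3 sedentary libraries and 2 were lower. Over all tested genes 24.5% had groups that did not overlap, 13.7% higher and 10.8% lower, so the family was near this background. The log2 difference was above 0 for 29 of 44 members (65.9%), against 52.2% of all genes and 54.6% of protein-coding genes. The median was 0.05 for the members and 0.01 for all genes. Both depended on the scaling: 24 members were above 0 after quantile normalization, 18 on reads with summed reads as totals, and 12 under TPM scaling, where the median of all genes was -0.09. Relative to the median of all genes, 29 members lay above it as reported, with summed reads and under TPM scaling, and 21 after quantile normalization. In bulk tissue, a difference in the number of cells of a type and a difference in RNA per cell cannot be told apart.

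**Figure D1:**
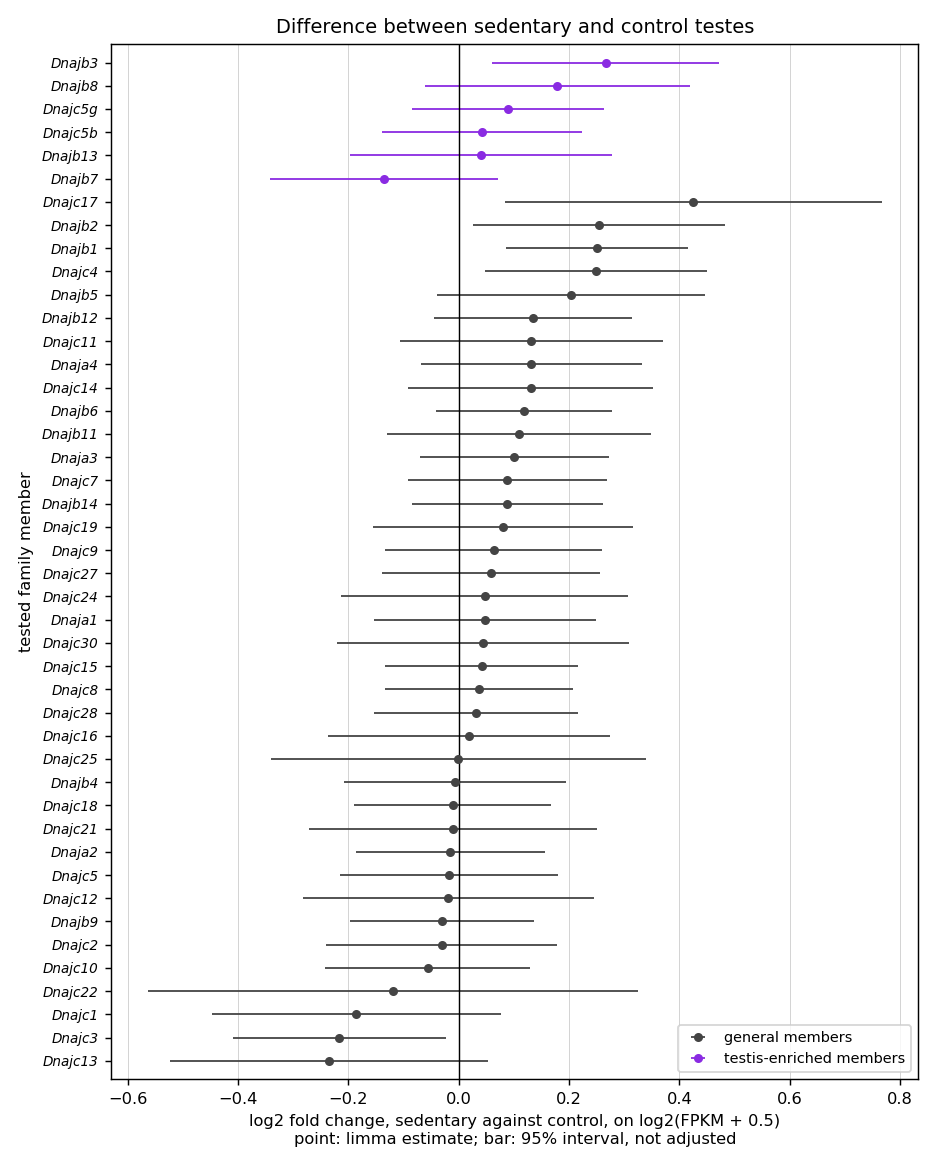
Log2 difference between sedentary and control testis (points) with its 95% confidence interval (bars) for the 44 tested members, testis-enriched and general members marked apart. Most intervals cross 0, and none of the members passed the adjusted threshold.

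The 6 testis-enriched members were all among the more abundant ones, which partly follows from choosing them for known expression in the testis. Their mean level over the 6 libraries was 46.0 to 714.9 FPKM with a median of 128, whereas the 38 general members that were tested had a median of 16.5 FPKM. Together they made up 46.9%, 48.9% and 47.7% of the summed family FPKM in the control libraries and 49.0%, 48.4% and 49.9% in the sedentary libraries, so the groups overlapped. The gene length that FPKM uses was also short for them, at 1051 to 1635 bases against a median of 3725 bases for the general members. Their span on the chromosome was not always short. It equalled the gene length for Dnajb3 and Dnajb7 but was 63984 bases for Dnajb8 and 96855 bases for Dnajc5b.

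**Figure D2:**
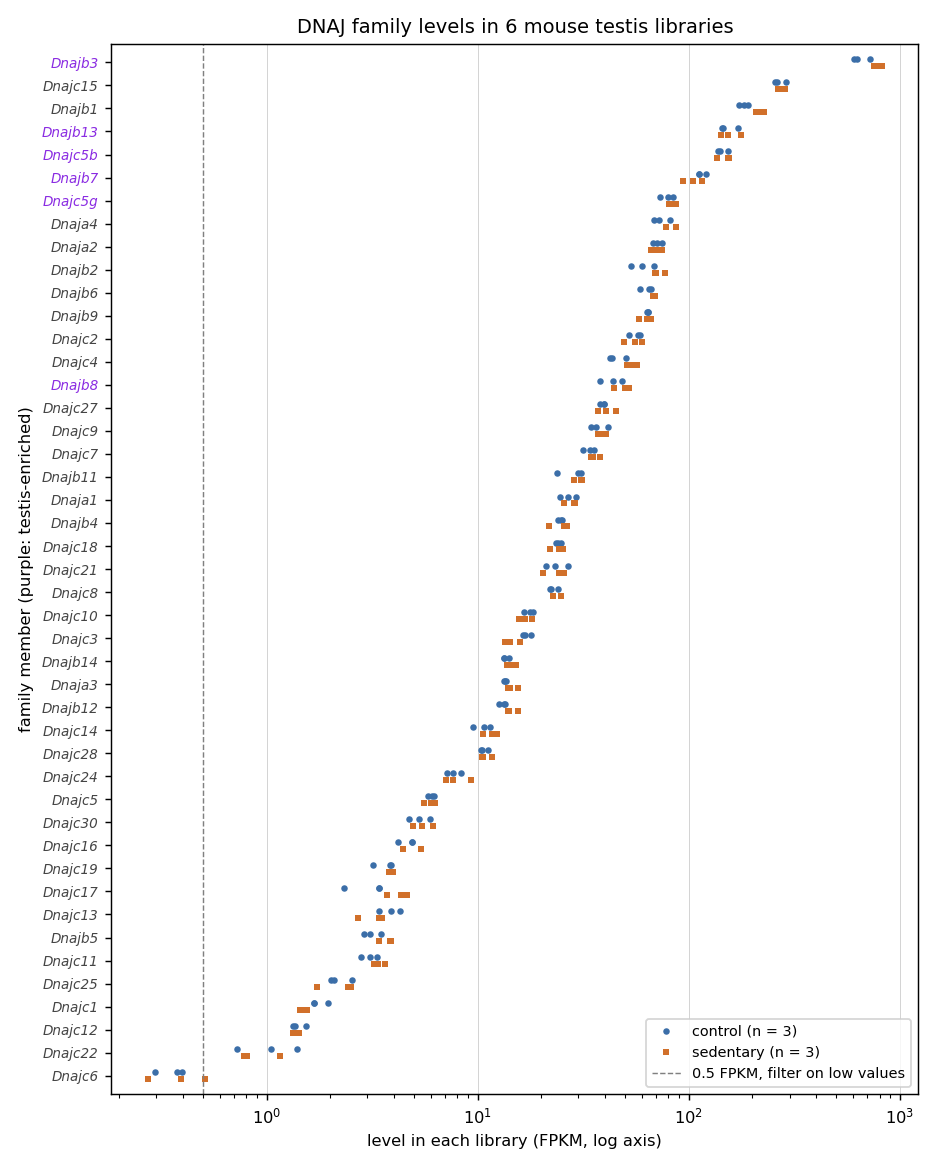
FPKM of every member in each of the 6 libraries, on a log axis, with members ordered by mean level and the 2 groups in different colours. Dnajb3 lies highest, at 605 to 819.7 FPKM, and the testis-enriched members all lie in the upper part of the range.

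Dnajb3 (also called Msj1), a J protein of haploid male germ cells, was the most abundant member and rank 40 among all genes by mean FPKM. It stood at 624, 721 and 605 FPKM in the control libraries and at 769, 751 and 819.7 FPKM in the sedentary libraries. All 3 sedentary libraries lay above all 3 controls, with control replicate 2 closest to the sedentary group. The mean was 649.9 ± 62.1 FPKM (SD, n = 3) in control and 780.0 ± 35.6 FPKM (SD, n = 3) in sedentary testis, a log2 difference of 0.27 (SE 0.09, 95% interval 0.06 to 0.47). It did not pass in limma (adjusted p = 0.219 on FPKM and 0.0871 on reads).

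A pair of limits touches Dnajb3. On reads its adjusted p from limma was 0.0250 without control replicate 2 and 0.0239 with array weights, over a range of 0.0239 to 0.442 across the alternatives. The difference was 0.12 once each library's trend with GC content and gene length was removed, and 0.06 after quantile normalization. As a share of the family's summed FPKM, Dnajb3 was 25.7%, 27.2% and 25.9% in control and 28.1%, 27.8% and 30.9% in sedentary libraries, which did not overlap. The elongating spermatid markers, at summed levels of 24485 to 29070 FPKM in control libraries and 31507 to 33974 FPKM in sedentary libraries, with 10 of 10 above 0, also lay higher, and their part in the difference was not tested. The table places the gene on chromosome 1 from 92980732 to 92981782 on the minus strand, in a build that the sources do not settle, with a length equal to its span, as in a gene without introns. It overlaps 8 genes on the opposite strand, the highest of which was at 1.58 FPKM.

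Dnajb7, another subfamily B member with a length equal to its span, was the only testis-enriched member with a lower mean in sedentary testis. Its values were 112, 121 and 112 FPKM in control libraries and 105, 116 and 93.4 FPKM in sedentary libraries, and the groups overlapped. The log2 difference was -0.14 (SE 0.09, 95% interval -0.34 to 0.07; limma adjusted p = 0.457).

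Dnajb8, which in human cells keeps polyglutamine proteins from aggregating, was the least abundant testis-enriched member. It stood at 37.8, 48.2 and 43.6 FPKM in control libraries and 52.2, 44.3 and 50.1 FPKM in sedentary libraries, again with overlap. Its log2 difference was 0.18 (SE 0.10; limma adjusted p = 0.400) and 0.04 after removal of the GC and length trend.

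Dnajb13, a radial spoke protein of the sperm flagellum, stood at 145, 170.1 and 143 FPKM in control libraries and 176, 154 and 142 FPKM in sedentary libraries. The lowest value of all 6 was in a sedentary library, and the difference of 0.04 (95% interval -0.20 to 0.28; limma adjusted p = 0.866) turned to -0.03 with the GC and length trend removed and to -0.07 under quantile normalization or TPM scaling.

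Dnajc5b and Dnajc5g are paralogs of the cysteine string protein Dnajc5, a J protein of secretory and synaptic vesicles. Dnajc5b was at 141, 153 and 138 FPKM in control libraries and 154, 154 and 136 FPKM in sedentary libraries, with a difference of 0.04 (95% interval -0.14 to 0.22; limma adjusted p = 0.811). Dnajc5g was at 79.4, 84.4 and 73.4 FPKM in control libraries and 85.3, 86.5 and 80.3 FPKM in sedentary libraries, with a difference of 0.09 (95% interval -0.08 to 0.26; limma adjusted p = 0.561). Both groups overlapped in each gene. Under TPM scaling the differences were -0.07 and -0.03. Dnajc5g overlaps Slc30a3 (52.7 FPKM) on the opposite strand. Dnajc5 itself was much lower, at 5.85 to 6.24 FPKM in control libraries and 5.60 to 6.31 FPKM in sedentary libraries.

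Between the classes, the differences of the testis-enriched members (-0.14 to 0.27, median 0.07, 5 of 6 above 0) lay inside those of the general members (-0.24 to 0.42, median 0.05, 24 of 38 above 0). The order of the medians changed with the processing. It was 0.04 against 0.07 with the GC and length trend removed, -0.03 against 0.02 after quantile normalization, and 0.02 against 0.03 without control replicate 3. Without that library the order on reads was the other way, 0.03 against 0.02. The difference between the classes itself was not tested.

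**Figure D3:**
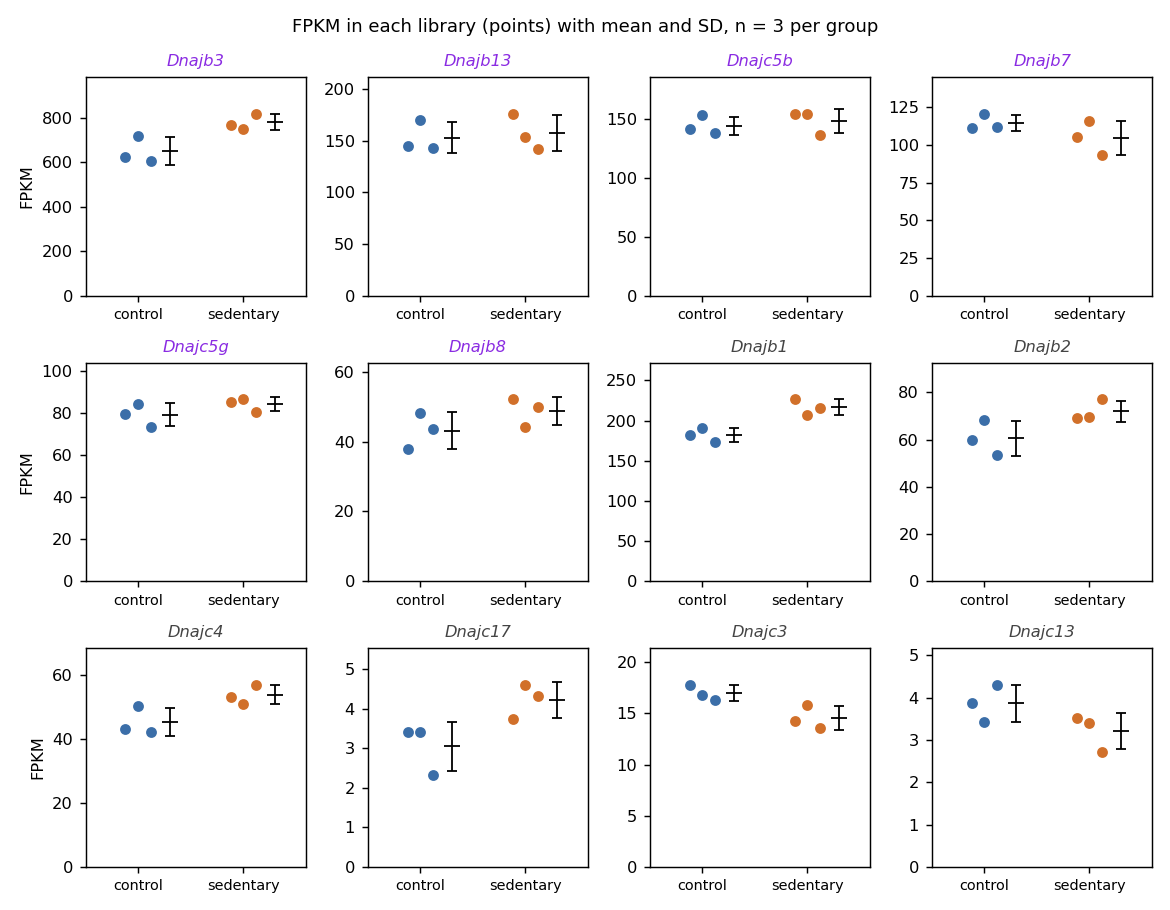
FPKM of 12 members in each library (points, control in blue and sedentary in orange), with the group mean and SD (bars, n = 3), each panel on its own axis from 0. The points of the groups are separate for Dnajb3, Dnajb1, Dnajb2, Dnajc4, Dnajc17 and Dnajc3 and overlap for the other 6.

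Among the general members, 8 are cytosolic or nuclear HSP70 helpers of subfamilies A and B. The difference was above 0 for 6 of them, with a median of 0.13, and the groups did not overlap for 3 (Dnajb1, Dnajb2 and Dnajb6, all higher in sedentary testis), or 37.5%, against 24.5% of all genes, 13.7% in that direction. Under TPM scaling 5 of the 8 were above 0, with a median of 0.01, and with the GC and length trend removed all 8 were, with a median of 0.13.

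Dnajb1, the classic heat-inducible HSP40, had the lowest p-value of the family on FPKM. It stood at 182, 191 and 173 FPKM in control libraries and 227, 207 and 216 FPKM in sedentary libraries, without overlap. The mean was 182 ± 8.75 FPKM (SD, n = 3) in control and 216 ± 9.69 FPKM (SD, n = 3) in sedentary testis, a log2 difference of 0.25 (SE 0.07, 95% interval 0.09 to 0.42). limma gave an unadjusted p of 0.00779, and adjusted p-values of 0.207 (FPKM) and 0.0900 (reads). On reads with array weights the adjusted p was 0.0213, over a range of 0.0213 to 0.321 across the alternatives. The difference was 0.17 with the GC and length trend removed and 0.11 after quantile normalization. The gene lies on chromosome 8 from 87667947 to 87671674, as the table holds it.

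The other heat-inducible members did not share the separation of Dnajb1. Dnaja4 was at 72.6, 81.8 and 68.0 FPKM in control libraries and 86.7, 78.3 and 78.3 FPKM in sedentary libraries (log2 difference 0.13, limma adjusted p = 0.456). Dnaja1, which partners the constitutive HSC70 and is needed for spermatogenesis in mice, was at 24.6 to 29.2 FPKM in control libraries and 25.7 to 29.0 FPKM in sedentary libraries (0.05, limma adjusted p = 0.811). Dnajb4 was at 24.0 to 25.2 FPKM and 21.8 to 26.6 FPKM (-0.01, limma adjusted p = 0.978). The groups overlapped in all 3. The signs for Dnaja1 and Dnajb4 depended on the processing: Dnaja1 was at -0.07 under TPM scaling and 0.18 with the GC and length trend removed, and Dnajb4 was at 0.15 with it removed. Over the 4 heat-inducible members the median was 0.09, with 3 above 0, and with the trend removed it was 0.16, with all 4 above 0.

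Dnajb2, which carries ubiquitin-interacting motifs and is best known from neurons, was at 60.0, 68.3 and 53.3 FPKM in control libraries and 69.1, 69.8 and 77.2 FPKM in sedentary libraries. The sedentary libraries all lay above the controls, though the highest control was less than 1 FPKM below the lowest sedentary library. The log2 difference was 0.25 (SE 0.10, 95% interval 0.03 to 0.48; limma adjusted p = 0.255). It was 0.17 without control replicate 3, 0.13 with the GC and length trend removed and 0.14 under TPM scaling. On reads the adjusted p was 0.131, and 0.0374 without control replicate 2, over a range of 0.0374 to 0.464 across the alternatives. Dnajb6, a suppressor of protein aggregation, was at 64.6, 66.0 and 58.9 FPKM in control libraries and 68.0, 68.8 and 68.9 FPKM in sedentary libraries (0.12, limma adjusted p = 0.402). Dnajb5 was low, at 2.90 to 3.48 FPKM in control libraries and 3.40 to 3.87 FPKM in sedentary testis (0.20, limma adjusted p = 0.353). Dnaja2, a constitutive HSC70 helper, was at 67.8 to 74.9 FPKM in control libraries and 66.2 to 74.6 FPKM in sedentary testis (-0.02, limma adjusted p = 0.934), and at 0.07 with the GC and length trend removed.

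The 11 members of the endoplasmic reticulum and other membranes were evenly divided, with 5 above 0, 6 below and a median of 0.00. Under TPM scaling 2 were above 0, and with the GC and length trend removed 8 were. Dnajc3 (P58IPK), a luminal co-chaperone that is induced when proteins misfold in the endoplasmic reticulum, was at 17.8, 16.8 and 16.3 FPKM in control libraries and 14.3, 15.9 and 13.5 FPKM in sedentary libraries. All sedentary libraries were below all controls, with a log2 difference of -0.22 (SE 0.08, 95% interval -0.41 to -0.02; limma adjusted p = 0.254 on FPKM and 0.171 on reads). On reads the adjusted p was 0.0415 under TPM scaling and 0.0448 with array weights, over a range of 0.0415 to 0.553. The difference was -0.12 with the GC and length trend removed.

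Other members of that compartment lay on both sides of 0. Dnajb9 (ERdj4), also induced by misfolded proteins in the endoplasmic reticulum, was at 63.4 to 64.3 FPKM in control libraries and 57.8 to 66.2 FPKM in sedentary libraries (-0.03, limma adjusted p = 0.853). Dnajb11 (ERdj3) was at 23.8 to 30.8 FPKM and 28.7 to 31.2 FPKM (0.11, limma adjusted p = 0.607), and Dnajc10 (ERdj5), a disulfide reductase, at 16.6 to 18.3 FPKM and 15.8 to 18.0 FPKM (-0.06, limma adjusted p = 0.749). Dnajb12, a membrane-anchored member, was at 13.4, 13.5 and 12.6 FPKM in control libraries and 15.5, 13.9 and 14.1 FPKM in sedentary libraries (0.13, limma adjusted p = 0.401). Dnajc1 (ERdj1) was at 1.68, 1.68 and 1.96 FPKM in control libraries and 1.44, 1.495 and 1.55 FPKM in sedentary libraries (-0.19, limma adjusted p = 0.422). Neither Dnajb12 nor Dnajc1 had overlapping groups. Dnajc1 overlaps Mllt10 (35.5 FPKM), and how reads in the shared part were assigned is not given in the sources used here.

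The 5 mitochondrial members were all above 0, between 0.04 and 0.13, with a median of 0.08, where 52.2% of all genes were above 0. Under TPM scaling 1 of the 5 was above 0 (median -0.02), and with the GC and length trend removed 4 were. Dnajc15, an inner membrane J protein linked to protein import and to complex I, was the next most abundant member after Dnajb3. It stood at 262, 290.1 and 257 FPKM in control libraries and 282, 285 and 264 FPKM in sedentary libraries (0.04, 95% interval -0.13 to 0.22; limma adjusted p = 0.810), and at -0.12 after quantile normalization. Its groups overlapped. Dnaja3, a matrix co-chaperone, was at 13.4 to 13.6 FPKM in control libraries and 13.9 to 15.5 FPKM in sedentary libraries (0.10, limma adjusted p = 0.504), without overlap. Dnajc19 (a subunit of the import motor), Dnajc11 (of the cristae-organising complex) and Dnajc30 were between 2.79 and 6.11 FPKM in all libraries. On the opposite strand, Dnajc19 overlaps Fxr1 (110 FPKM) and Dnajc30 overlaps Wbscr22 (5.96 FPKM). How reads in the shared parts were assigned is not given in the sources used here.

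Of the 5 members that act at ribosomes, on RNA or on histones, 3 were above 0 and 2 below, with a median of 0.04. Under TPM scaling or quantile normalization 1 was above 0, and with the GC and length trend removed all 5 were. Dnajc17, which is linked to pre-mRNA splicing, had the largest log2 difference among the 44 members, 0.42 (SE 0.15, 95% interval 0.08 to 0.77; limma adjusted p = 0.227). It stood at 3.41, 3.41 and 2.33 FPKM in control libraries and 3.74, 4.61 and 4.33 FPKM in sedentary libraries, without overlap, from 101 to 228 reads per library. The difference was 0.27 without control replicate 3 and 0.30 with the GC and length trend removed. Dnajc17 overlaps Zfyve19 (11.4 FPKM) on the opposite strand, so reads in the shared part cannot be told apart without strand. The ribosome-associated Dnajc2 was at 51.9 to 58.7 FPKM in control libraries and 49.2 to 59.8 FPKM in sedentary libraries, Dnajc9, a histone chaperone, at 34.3 to 41.2 and 37.1 to 40.5 FPKM, and Dnajc21, which acts in ribosome biogenesis, at 21.1 to 26.7 and 20.4 to 25.6 FPKM, all with overlap.

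In the vesicle traffic group, 2 of 3 members were tested and both were below 0. Dnajc13 (RME-8), an endosomal J protein, was at 3.88, 3.42 and 4.31 FPKM in control libraries and 3.52, 3.40 and 2.72 FPKM in sedentary libraries, with overlap (-0.24, 95% interval -0.52 to 0.05; limma adjusted p = 0.361). Among the remaining 7 members, 5 were above 0. Dnajc4 had a log2 difference of 0.25 (SE 0.09, 95% interval 0.05 to 0.45; limma adjusted p = 0.227), with 43.3, 50.4 and 42.3 FPKM in control libraries and 53.3, 51.2 and 57.1 FPKM in sedentary libraries. Its groups did not overlap, and the difference was 0.09 with the GC and length trend removed. Dnajc7, which binds both HSP70 and HSP90, was at 31.4 to 35.7 FPKM in control libraries and 34.6 to 38.1 FPKM in sedentary libraries.

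The differences followed the members' GC content. Across the 44 members, as a description over genes that share the same 6 libraries, Pearson's r between the log2 difference and the GC content of the longest transcript was 0.61 (Spearman's rho 0.65). Over 12449 protein-coding genes it was 0.49, so the family followed a trend of the whole libraries. With the boundary at 50%, chosen after the data were seen, 16 of 17 members of higher GC content were above 0 (median 0.13), against 13 of 27 members of lower GC content (median -0.00). After the GC and length trend was removed the medians were 0.07 and 0.07, r was -0.05, and 36 of 44 members (81.8%) were above 0, against 55.0% of the 14504 genes fitted. The removal subtracts a fit on GC content, so the loss of the correlation follows from the method. What causes the trend was not tested.

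**Figure D4:**
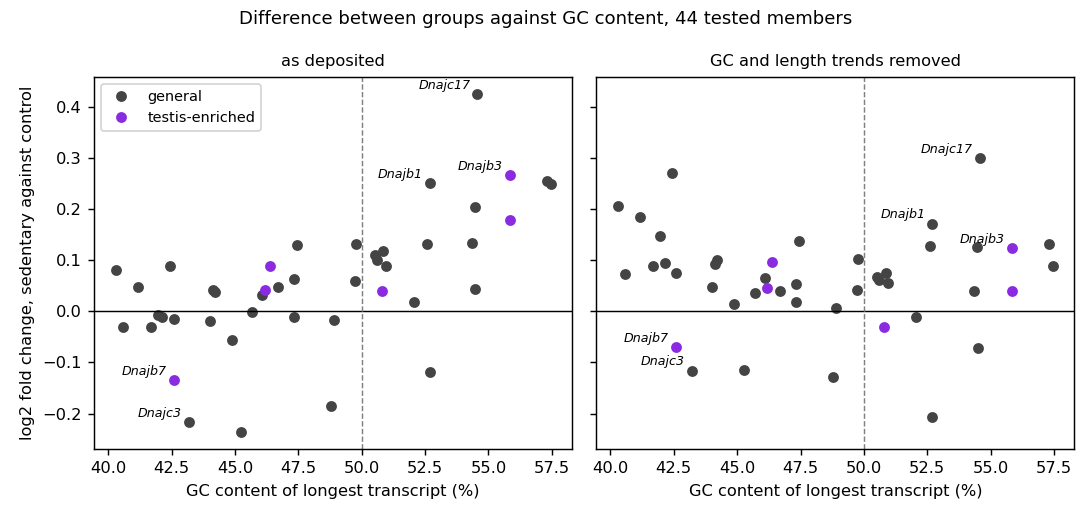
Log2 difference of each of the 44 tested members against the GC content of its longest transcript in percent, before and after each library's GC and length trends were removed. The removal subtracts a fit on GC content, so the fall of r from 0.61 before it to -0.05 after it follows from the method.

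The partners of the family were read from a list of 31 HSP70 proteins, nucleotide exchange factors and related chaperones, of which 27 were found by name and tested. None passed limma on FPKM or on reads, where the lowest adjusted p was 0.205 and 0.0616. The difference was above 0 for 17 and below 0 for 10, with a median of 0.09. Without adjustment, 6 were under 0.05 on FPKM (22.2%, against 17.4% of all genes) and 8 on reads (29.6%, against 20.2%). Groups did not overlap for 33.3% of the partners, 7 higher and 2 lower, against 24.5% of all genes. Hspa2, the HSP70 of meiotic and haploid germ cells, was the most abundant, at 519 ± 56.9 FPKM in control libraries and 589 ± 25.9 FPKM in sedentary testis (SD, n = 3; limma adjusted p = 0.346). The nucleotide exchange factors Bag1 (356 ± 26.8 and 399 ± 13.1 FPKM, SD, n = 3; limma adjusted p = 0.313) and Bag5 (309.9 ± 27.6 and 344 ± 16.9 FPKM, SD, n = 3; limma adjusted p = 0.385) followed. Hspa1a, Hspa8, Hspa14 and Hsp90aa1 were not matched by name and have no value here.

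**Figure D5:**
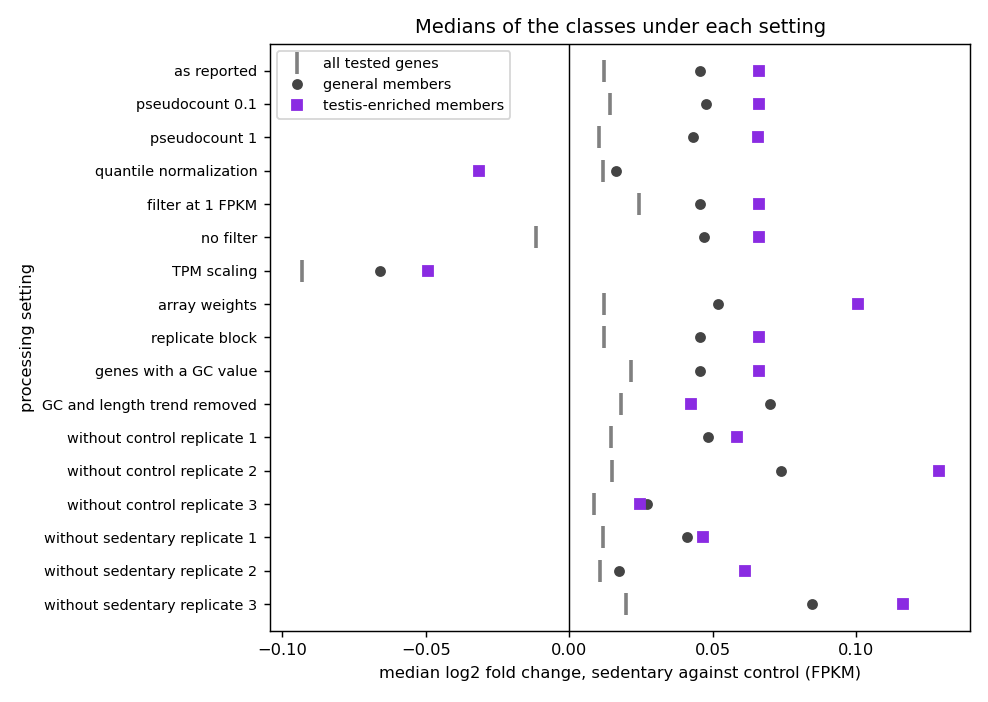
Median log2 difference of the testis-enriched members (squares), the general members (circles) and all tested genes (grey ticks) in the FPKM fit under each processing alternative. The medians of both classes lie between -0.07 and 0.13, and all 3 medians are below 0 under TPM scaling.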

How the data were processed

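Testis RNA of 3 control and 3 sedentary mice was analysed. The authors deposited FPKM values for 44065 genes, with names, types and lengths. HISAT2, StringTie and DESeq2 are named per the submitters' processing notes, as are builds mm10 and mm39, with no versions or roles. The table's identifiers follow a C57BL/6NJ annotation, and its build is not settled by the sources used here. Whether counting used strand is not given in them either. Of the 45 members, 23 overlap another gene of the table, 20 of them one on the opposite strand.

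Multiplied by gene length, the deposited FPKM fell on whole steps in each library (tolerance 0.001), which gave back the reads. Both mates appear to be counted, and reads are not independent molecules. Every pair of replicates differed beyond sampling noise (chi-square per degree of freedom 7.16 to 16.9).

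limma 3.58.1 in R 4.3.3 was run with a variance trend on log2(FPKM + 0.5) for 19201 genes, and voom was run on the recovered reads. The library totals for voom were computed from the smallest FPKM step of each library. The FPKM values rest on the same totals. They exceeded the summed reads in control replicates 1 and 3 and fell below them in all 3 sedentary libraries. With summed reads as totals, the general median on reads was -0.028 instead of 0.050. With n = 3 per group, an exact permutation test of a single value cannot go below 0.1, so single values were not tested that way. GC content came from GENCODE M21 transcripts, and its trend was removed with splines of 5 degrees of freedom. Promoter windows came from RefSeq (GRCm38.p6). Python 3.11.15 and matplotlib 3.10.9 were used. The fits were also run on simulated reads. These had the same spread setting for every gene and no GC or length trend, so nothing is concluded from them here.

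Members and lists were chosen with earlier results of these data known. The role groups and motifs were written after the values were seen. Named were all testis-enriched members, the 5 general members of highest level, the 8 general members of lowest p, the 4 heat-inducible members, and the 3 most abundant partners; others are named as examples of their role group. The p-values measure the spread between the samples called biological replicates. Alternatives covered the pseudocount, filter, scaling, array weights, replicate block, left-out libraries and the GC and length trend.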

Additional observations from a re-analysis of the deposited data

How the results depend on the processing

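No member passed on FPKM under any alternative run, but the counts over all genes moved. On FPKM, 5 genes passed, against 3 with a filter at 1 FPKM, 1 without a filter, 16 with array weights, 0 with the GC and length trend removed, 277 by voom on reads, and 0 to 2 without 1 library. On reads, 277 genes passed, against 429 with summed reads as totals, 168 without a filter, 807 with TPM scaling, 1737 with array weights, 125 over genes with a GC value (an alternative chosen after seeing the data), 113 with the GC and length trend removed, and 22 to 1058 without 1 library. The higher share of these calls was 22.0%, against 4.90% with summed reads, 2.11% with TPM scaling and 53.1% with array weights. Members passing on reads numbered 0, against 1 with TPM scaling (Dnajc3), 3 with array weights (Dnajb3, Dnajb1 and Dnajc3), and 0 to 2 without 1 library (Dnajb3 and Dnajb2 without control replicate 2). The testis-enriched median of 0.07 was -0.032 after quantile normalization and -0.049 with TPM scaling, and the general median of 0.05 was -0.066 with TPM scaling, which moved the median of all genes from 0.01 to -0.09. On reads with summed reads as totals they were -0.0092 and -0.028. On FPKM, 28 of the 44 members changed sign under at least 1 alternative (17 under TPM scaling, 13 with the trend removed, 9 by quantile normalization), and 16 under none, among them Dnajb3, Dnajb1, Dnajb2, Dnajc4, Dnajc17 and Dnajc3. Of the members named by rule, signs turned for Dnajb13 (-0.066 by quantile normalization, -0.075 by TPM scaling, -0.030 with the trend removed, -0.044 to 0.12 without 1 library), Dnajc5b (-0.082 by quantile normalization, -0.073 by TPM scaling), Dnajc5g (-0.026 by TPM scaling), Dnajc15 (-0.12 by quantile normalization, -0.074 by TPM scaling), Dnaja2 (0.074 with the trend removed, -0.058 to 0.027 without 1 library), Dnaja1 (-0.015 by quantile normalization, -0.067 by TPM scaling, -0.014 to 0.11 without 1 library) and Dnajb4 (0.038 with array weights, 0.15 with the trend removed, -0.062 to 0.077 without 1 library). The causes of these moves were not tested. The replicate number did not pair the samples (correlations of same-numbered deviations -0.07, -0.09 and -0.03), and with it as a replicate block 0 genes passed on FPKM, 381 on reads, and 0 members in either; the class medians stayed at 0.07 and 0.05. The lowest tested member, Dnajc22, had 38 to 86 reads per library.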

Other observations

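J proteins outside the Dnaja, Dnajb and Dnajc names were measured as well. Sec63 (of the translocation channel of the endoplasmic reticulum), Hscb (of iron-sulfur cluster assembly) and Gak (of clathrin uncoating) had log2 differences from -0.15 to 0.04 and none passed limma. The table also lists 17 pseudogenes described as DNAJ, of which 2 passed the expression filter, the highest at a mean of 4.78 FPKM, far below the abundant members.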
